A study of Homo sapiens with 9 samples.

Results

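The 50 genes described here encode the machinery of mitosis: the kinases and cyclins that start it, the spindle assembly checkpoint, factors of the anaphase-promoting complex, kinesins, kinetochore and condensin subunits, and proteins of the spindle and of cytokinesis. They were taken by name from a list drawn up for mitosis, with earlier results of these data known. All 50 were found among the 19775 genes named in the table, on 99 probe sets. Total RNA of PANC-1, an established line of human pancreatic carcinoma cells, was read on 9 Affymetrix expression arrays. The groups were BRD7552, a small molecule, at 5 uM for 6 h (3 arrays), BRD7552 at 5 uM for 72 h (3 arrays) and DMSO, the solvent (3 arrays, labelled as control with no exposure time). No genetic change or other agent is named for any group, and the dose was stated to be the lowest with full induction of PDX1, a pancreatic homeobox factor. Whether replicates came from separate cultures is not stated, and the p-values cover only the spread among these arrays, which may be technical. The same 3 DMSO arrays serve both exposure times, and how long these cells were in culture is not given. In the comparisons with DMSO, time in culture and the compound therefore cannot be told apart.

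Entry into mitosis is driven by CDK1 with cyclin B, and by kinases of the Aurora, Polo and NEK families. The spindle checkpoint holds the anaphase-promoting complex (APC/C), a ubiquitin ligase, inactive until every kinetochore is attached to microtubules, after which the complex marks securin and cyclin B for destruction and chromosomes separate. Most of these genes are transcribed in G2 and M phase under MuvB complexes, NF-Y and FOXM1, so their transcripts are commonly read as a measure of how many cells of a culture are cycling. In bulk RNA, fewer cells in mitosis and less transcript per cell cannot be told apart.

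Values are the deposited linear signal of the probe set with the highest mean for each gene, and differences are on the log2 scale with the standard error of the limma fit. Calls rest on p-values below 0.05 after Benjamini-Hochberg adjustment over the 12678 genes above a filter on low values (mean signal over the 9 arrays of 17.8). All 50 mitosis genes passed the filter, at mean signals from 59.0 (INCENP) to 4535 (BUB3), and "rose" and "fell" are used for called genes. The 72 h arrays stood somewhat apart. Their upper quartile of signal was 97.5 to 117, against 112 to 119 on the other arrays, with replicates 2 and 3 at 97.5 and 99.7. Their mean Spearman correlation within the group was 0.958 to 0.971, against 0.985 to 0.990, and the ACTB control probe sets gave 3' to 5' ratios of 2.07 to 2.21, against 1.74 to 2.05. The GAPDH ratios overlapped, at 1.34 to 1.39 against 1.27 to 1.35. The part of these array differences in the results was not tested. For the mitosis genes the median SD within the 72 h group was 0.0666 log2 units, against 0.0604 in DMSO and 0.0768 at 6 h. Over all genes it was 0.129 at 72 h and 0.0666 in DMSO. Of the cell type markers, 8 of 9 epithelial and duct genes lay above the filter (all but KRT23), from CDH1 at 52.4 to KRT18 at 16982 in DMSO, and 3 of 4 mesenchymal genes did, with VIM at 17046. Above it were also 2 of 4 stromal markers (COL1A1 at 605 and DCN at 29.1), 1 of 4 endothelial markers (PECAM1 at 19.6) and 1 of 3 acinar markers (CELA3A at 21.7), while 0 of 4 leukocyte and 0 of 4 endocrine markers were. The summed signal of the 9 epithelial and duct markers was 34494 to 35352 in DMSO and 27583 to 29459.7 at 72 h. The part of this difference in the results was not tested.

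By the probe set of highest signal of each gene, the transcripts of these 50 genes stayed near their solvent level at both times. A second probe set of CCNB1 stood at 0.50 and one of ANLN at -0.35 at 72 h, both called over all probe sets, as given below. After 72 h of BRD7552, 13 of the 50 genes were called against DMSO, 9 higher and 4 lower, with the largest difference a fall of 0.39 in UBE2C. That share, 26%, was next to the 26.6% of all genes called in this comparison and is not in itself a result about mitosis genes. The directions were 18% higher and 8% lower, against 8.33% and 18.3% of all genes, a difference that was not tested. With quantile normalization, which made the background 13.1% higher and 15.6% lower, the mitosis genes held 11 higher and 4 lower. The median log2 difference was 0.015 for the mitosis genes and -0.062 for all genes. The mean log2 signal of the 50 genes ran from 9.85 to 9.94 on the DMSO arrays, 9.83 to 9.87 at 6 h and 9.88 to 9.94 at 72 h, so these ranges overlapped. The 95% intervals of the ratio to DMSO lay inside 0.8 to 1.25 for 37 of the 50 genes at 72 h, bounds chosen after the values were seen. Only UBE2C had a ratio past them. The arrays of the groups did not overlap for 10 genes on the higher side and 6 on the lower, which is 20% and 12% of the 50, where over all genes the shares were 12.0% and 24.9%. The count of 13 fell to 7 without DMSO replicate 1 (3 higher, 4 lower), where 5.82% of all genes were called higher and 13.6% lower. It fell to 6 with arrays centred on their medians (5 and 1), against 6.47% and 9.99% of all genes. With the probe sets of a gene averaged it was 10 (5 and 5), against 4.86% and 15.9%. Without 72 h replicates 2 and 3 together, the median log2 difference was 0.026 for the mitosis genes and 0.0024 for all genes.

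**Figure D1:**
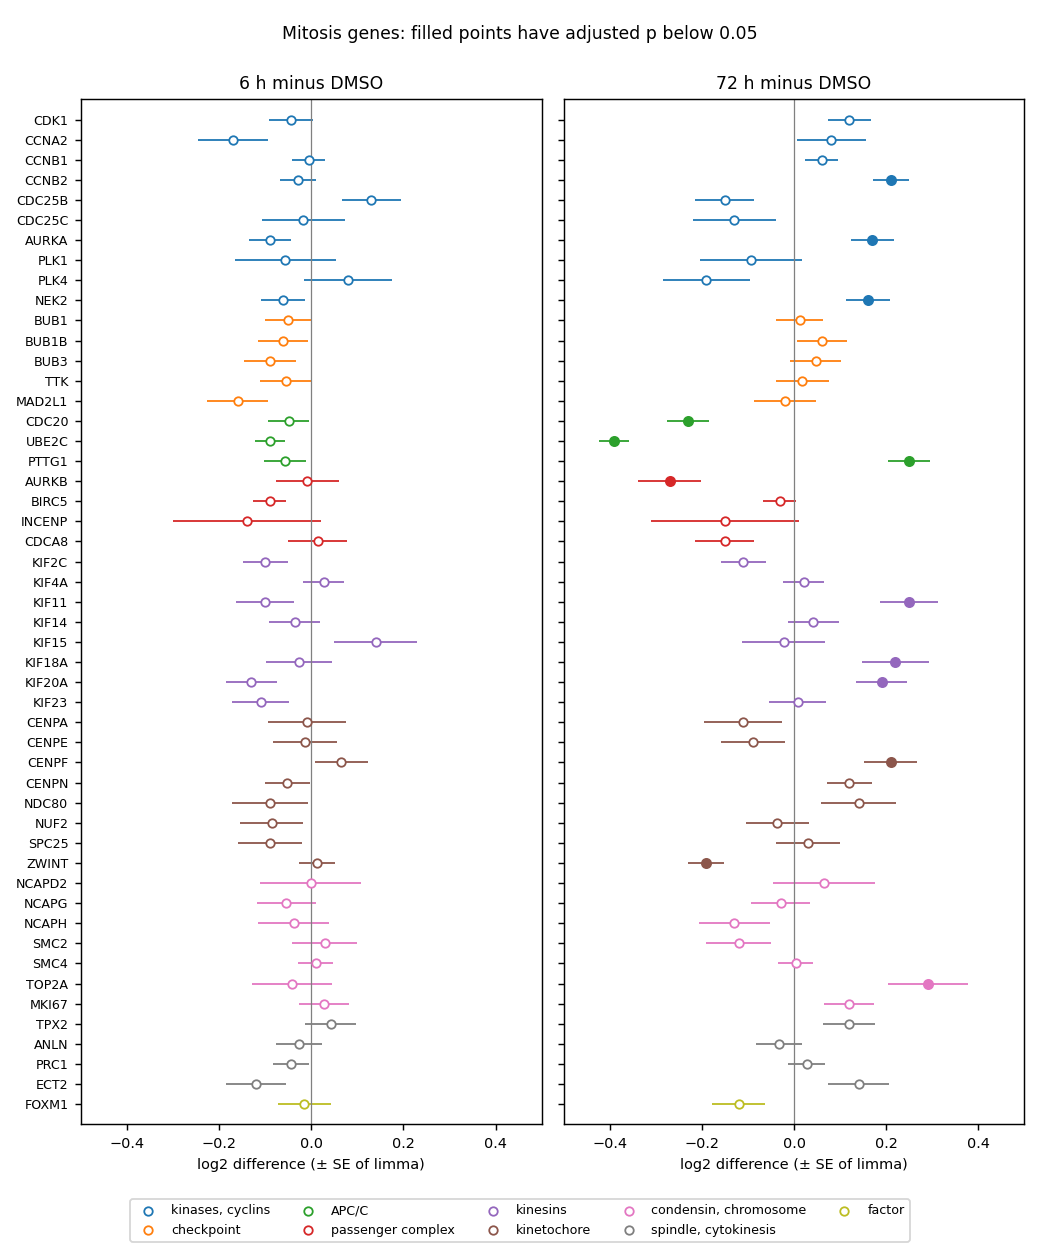
Log2 difference from DMSO (x axis) of each of the 50 mitosis genes (y axis) at 6 h and 72 h, with bars for the standard error and colours for the class; filled points passed at an adjusted p below 0.05. At 6 h no point is filled, and at 72 h 9 filled points lie to the right of 0 and 4 to the left, all between -0.39 and 0.29.

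Promoter windows were searched for short motifs known from genes of G2 and M phase. Of the 50 genes, 43 had a promoter window in the RefSeq table (GRCh38.p14, 250 bases before to 50 after a start), with 58 windows in all. The missing ones were AURKA, BUB3, TTK, UBE2C, BIRC5, TPX2 and FOXM1. The motifs searched on both strands were CCAAT, the box bound by NF-Y, and TTTGAA and TTTAAA, letters of the CHR element that MuvB complexes bind. CCAAT was present in 67.2% of the mitosis windows and 34.6% of all 35116 windows of that length. TTTGAA was present in 62.1% against 15.2%, and TTTAAA in 25.9% against 12.2%. CCAAT together with either CHR form occurred in 53.4% against 9.27%. By gene, 7 of the 8 genes with a window that were higher at 72 h held both kinds of motif, as did 2 of 3 lower genes and 18 of 32 genes that were not called. NEK2, which rose, and AURKB, which fell, held CCAAT and neither CHR form. A match shows only that the letters are there. The 250 bases before the start are printed for 2 genes that rose (CCNB2, chr15:59104896-59105145, and PTTG1, chr5:160421605-160421854, both on the plus strand) and 2 that fell (CDC20, chr1:43358731-43358980, plus strand, and ZWINT, chr10:56361260-56361509, minus strand). In each direction they are the called genes of lowest adjusted p among those with a window. They are written 5′ to 3′ along the gene, with every motif on either strand in capitals.
CCNB2: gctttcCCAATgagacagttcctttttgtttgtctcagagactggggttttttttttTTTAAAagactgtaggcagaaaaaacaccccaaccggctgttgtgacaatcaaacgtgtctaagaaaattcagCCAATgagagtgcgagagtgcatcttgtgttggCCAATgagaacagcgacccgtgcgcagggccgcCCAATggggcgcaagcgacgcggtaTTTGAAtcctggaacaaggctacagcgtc
PTTG1: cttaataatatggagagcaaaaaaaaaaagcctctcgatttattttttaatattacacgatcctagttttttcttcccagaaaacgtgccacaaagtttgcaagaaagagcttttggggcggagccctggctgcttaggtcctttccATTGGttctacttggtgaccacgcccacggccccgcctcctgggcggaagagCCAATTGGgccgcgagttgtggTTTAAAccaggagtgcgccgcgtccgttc
CDC20: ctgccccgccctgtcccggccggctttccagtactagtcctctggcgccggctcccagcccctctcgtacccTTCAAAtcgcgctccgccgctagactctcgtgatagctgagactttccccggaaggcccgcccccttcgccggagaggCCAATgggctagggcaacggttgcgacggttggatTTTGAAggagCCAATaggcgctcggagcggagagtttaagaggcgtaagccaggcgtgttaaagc
ZWINT: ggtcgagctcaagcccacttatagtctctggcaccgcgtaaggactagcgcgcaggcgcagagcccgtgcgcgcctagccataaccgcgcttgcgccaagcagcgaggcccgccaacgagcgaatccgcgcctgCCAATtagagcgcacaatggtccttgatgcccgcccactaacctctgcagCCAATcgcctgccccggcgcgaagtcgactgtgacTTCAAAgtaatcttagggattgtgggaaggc
CCNB2 carries CCAAT with its first base 244, 120, 87 and 54 bases before the start, TTTAAA at 193 and TTTGAA at 29 bases before it. CDC20, which fell, carries CCAAT at 100 and 55 bases and TTTGAA at 65 bases before the start, and TTTGAA on the opposite strand at 178 bases. PTTG1 has TTTAAA at 29 bases, CCAAT at 51 bases, and CCAAT on the opposite strand at 103 and 48 bases. ZWINT has CCAAT at 116 and 66 bases and TTTGAA on the opposite strand at 31 bases.

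Among the kinases, cyclins and CDC25 phosphatases that bring about entry, 3 of 10 rose at 72 h, 0 fell and 7 did not pass. That 30% is close to the 26.6% of all genes called, and as classes hold few genes their counts are descriptions beside that background (8.33% higher, 18.3% lower). CCNB2, a B-type cyclin, read 1537, 1535 and 1546 in DMSO, 1553, 1498 and 1479 at 6 h and 1798, 1803 and 1739 at 72 h. All 72 h arrays lay above all others, and the rise over DMSO was 1.16-fold (log2 0.21 ± 0.039, SE, adjusted p = 0.000984). With all 3 of its probe sets averaged, of which the other 2 lie below the filter, the difference was 0.12 (adjusted p = 0.396). AURKA, the centrosome and spindle pole kinase, read 2873, 2879 and 2767 in DMSO, 2695, 2521 and 2802 at 6 h and 3359, 3217 and 3047 at 72 h. Its 72 h arrays were again the highest, and it rose 1.13-fold (log2 0.17 ± 0.046, adjusted p = 0.0105). Without DMSO replicate 3 the adjusted p was 0.0557. NEK2, a kinase of centrosome separation, read 747, 774 and 784 in DMSO, 761, 717 and 730.4 at 6 h and 860.1, 873 and 837 at 72 h. It rose 1.12-fold with no overlap between 72 h and the other groups (log2 0.16 ± 0.048, adjusted p = 0.0237). That call ended without DMSO replicate 1 (adjusted p = 0.105), DMSO replicate 2 (0.0509) or 72 h replicate 2 (0.0802), and with median centring the adjusted p was 0.113 for NEK2 and 0.0688 for AURKA.

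CDK1, the kinase at the centre of mitotic entry, did not pass at 72 h, with a log2 difference of 0.12 ± 0.047 and a 95% interval of 1.01 to 1.17 for the ratio. Its signals were 3031, 3224 and 2947 in DMSO and 3383, 3322 and 3289.9 at 72 h, which do not overlap. CCNB1, the main mitotic cyclin, stood at 0.060 (interval 0.988 to 1.10) and CCNA2, the cyclin of S and G2 phase, at 0.081 (0.946 to 1.18). The phosphatases that activate CDK1 stood below 0, CDC25B at -0.15 (0.821 to 0.993) and CDC25C at -0.13. PLK1, the Polo kinase of mitosis, read 102, 107 and 101 in DMSO and 107, 83.4 and 101 at 72 h, so its groups overlapped (log2 -0.093, interval 0.794 to 1.11). PLK4, which licenses centriole duplication, stood at -0.19 and did not pass.

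The spindle checkpoint genes differed little at 72 h by their probe sets of highest signal. None of BUB1, BUB1B, BUB3, TTK and MAD2L1 passed, and limma gave 0 of 5 an unadjusted p under 0.05, against 36.9% of all genes. Their log2 differences ran from -0.020 (MAD2L1) to 0.061 (BUB1B). BUB3, which carries the checkpoint kinases BUB1 and BUB1B to kinetochores, read 4474, 4745 and 4494 in DMSO, 3818, 4477 and 4643 at 6 h and 4687, 4680.1 and 4798 at 72 h. The DMSO and 72 h arrays overlapped, and the ratio was 1.03 (95% interval 0.951 to 1.12). For TTK, the kinase that starts checkpoint signalling, the log2 difference was 0.018, and for MAD2L1, which binds and restrains CDC20, the interval of the ratio was 0.894 to 1.09. Lower-signal probe sets of BUB1 and MAD2L1 reached -0.39 and -0.54 and were not called either.

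In the APC/C class, UBE2C and CDC20 fell at 72 h while PTTG1, which encodes a substrate of the complex, rose. All 3 were called (1 higher, 2 lower), against 26.6% of all genes. With 3 genes this count is a description, and in a list of 17 APC/C genes given below 29.4% were called. UBE2C, the ubiquitin-conjugating enzyme that starts chains for the APC/C, read 3800.3, 3984 and 3886 in DMSO, 3708, 3641 and 3617 at 6 h and 2978, 2962 and 2934 at 72 h. The 3 groups did not overlap, and at 72 h the ratio to DMSO was 0.761 (95% interval 0.724 to 0.799), a fall of 0.39 ± 0.033 with an adjusted p of 7.52e-07. CDC20, the coactivator that brings substrates to the APC/C and is the target of the checkpoint, read 2817, 2977 and 3056 in DMSO, 3034, 2799.7 and 2723 at 6 h and 2491, 2562 and 2502 at 72 h. It fell by 0.23 ± 0.045 (ratio 0.854, adjusted p = 0.00155), with every 72 h array below the others. PTTG1 encodes securin, the inhibitor of separase that the APC/C destroys at anaphase. Its signals were 4003, 4139.6 and 4067 in DMSO, 4139.6, 3724 and 3881 at 6 h and 5065, 4936 and 4522 at 72 h. It rose 1.19-fold (log2 0.25 ± 0.046, adjusted p = 0.00102), also without overlap. Its probe set is of the type that can bind near-identical sequences, and PTTG1 has such copies in the genome, so its signal may include theirs. Of the 13 calls at 72 h, UBE2C and PTTG1 were the 2 that none of the alternatives run ended. Each has 1 probe set, so averaging or taking a second probe set could not end these calls. The call of CDC20 ended with median centring alone (adjusted p = 0.0966).

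Of the chromosomal passenger complex, which corrects wrong attachments and later guides cytokinesis, 1 of 4 fell and 3 did not pass, a share next to the 26.6% of all genes called. AURKB, its kinase, read 394, 409 and 405 in DMSO, 402, 414 and 385 at 6 h and 352, 346 and 304 at 72 h. Its 72 h arrays lay below all others, a fall of 0.27 ± 0.068 (ratio 0.828, adjusted p = 0.00824). The adjusted p was 0.0818 without 72 h replicates 2 and 3 together, and 0.113 with median centring. The scaffold INCENP stood at -0.15 ± 0.16, CDCA8 (borealin) at -0.15 ± 0.064 and BIRC5 (survivin) at -0.031 ± 0.036. The interval for INCENP, 0.718 to 1.14, was wide, since its 72 h arrays ran from 42.9 to 68.3. AURKA and AURKB, related kinases with separate sites of action, were thus called in opposite directions.

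Of 8 kinesins, the motor proteins of the spindle, 3 rose at 72 h, 0 fell and 5 did not pass, against 8.33% of all genes higher and 18.3% lower. KIF11 (Eg5), which pushes the spindle poles apart, read 756, 895 and 811 in DMSO, 712, 788 and 794 at 6 h and 971, 989 and 957 at 72 h. It rose 1.19-fold (log2 0.25 ± 0.063, adjusted p = 0.00851) without overlap, and the adjusted p was 0.0552 without DMSO replicate 1 and 0.107 without 72 h replicates 2 and 3 together. KIF18A, which dampens chromosome movement at the metaphase plate, read 256, 278 and 262 in DMSO, 242, 267 and 274 at 6 h and 312, 307 and 308 at 72 h. Its rise was 1.16-fold (log2 0.22 ± 0.072, adjusted p = 0.0356), and KIF20A, a motor of cytokinesis, rose 1.14-fold from 531, 549 and 565 to 636, 646 and 590.5 (log2 0.19 ± 0.056, adjusted p = 0.0228). The KIF18A call ended without DMSO replicate 1 (adjusted p = 0.138), DMSO replicate 3 (0.115), 6 h replicate 2 (0.0536), 72 h replicate 2 (0.0657) or 72 h replicate 3 (0.0600). The KIF20A call ended without DMSO replicate 1 (0.101), DMSO replicate 2 (0.0562) or 72 h replicate 2 (0.0868). With median centring the adjusted p was 0.0838 for KIF18A and 0.0952 for KIF20A. The chromokinesin KIF4A stood at 0.021, the cytokinesis motors KIF14 and KIF23 at 0.042 and 0.0083, KIF15 at -0.022 and the microtubule depolymerase KIF2C at -0.11.

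Kinetochore genes were split, with 1 of 8 higher, 1 lower and 6 not passing, which is 25% called against 26.6% of all genes. CENPF, a large outer kinetochore protein, read 1200.1, 1379 and 1224 in DMSO, 1410.3, 1279 and 1285 at 6 h and 1537, 1419.8 and 1429 at 72 h, where every array was above the others. It rose 1.15-fold over DMSO (log2 0.21 ± 0.058, adjusted p = 0.0159). The call ended without DMSO replicate 1 (adjusted p = 0.0842), DMSO replicate 3 (0.0745) or 72 h replicate 1 (0.0591). ZWINT, which links the RZZ complex to the outer kinetochore, read 3129, 3219.7 and 3205 in DMSO, 3232, 3145 and 3263 at 6 h and 2667, 2804 and 2937 at 72 h. It fell by 0.19 ± 0.039 (ratio 0.880, adjusted p = 0.00275) with no overlap, and with median centring alone its adjusted p was 0.185. The subunits of the NDC80 complex, the main microtubule coupler, did not pass: NDC80 stood at 0.14, NUF2 at -0.036 and SPC25 at 0.030. The centromeric histone CENPA stood at -0.11 and the kinetochore motor CENPE at -0.089, while CENPN, which reads CENPA nucleosomes, stood at 0.12.

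Condensin and chromosome genes held 1 rise among 7 and 0 falls, which is 14.3% called against 26.6% of all genes. TOP2A, the topoisomerase that untangles sister chromatids, rose 1.22-fold by its probe set of highest signal (log2 0.29 ± 0.087, adjusted p = 0.0224). Its signals were 2895, 3140.4 and 2976 in DMSO, 2577, 3223 and 2982 at 6 h and 3994, 3111 and 3982 at 72 h, so 72 h replicate 2 lay inside the DMSO range. The call ended without DMSO replicate 1 (adjusted p = 0.0820), DMSO replicate 3 (0.0665), 72 h replicate 1 (0.106) or 72 h replicate 3 (0.111). The condensin ATPases SMC2 and SMC4 stood at -0.12 and 0.0038, and the condensin I subunits NCAPD2, NCAPG and NCAPH at 0.065, -0.029 and -0.13. For SMC4 the interval of the ratio was narrow, 0.949 to 1.06. The probe set of highest signal of MKI67 stood at 0.12.

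None of the 4 spindle and cytokinesis genes passed at 72 h, where 26.6% of all genes were called. ANLN (anillin), a scaffold of the contractile ring, read 3915, 4544 and 4150.3 in DMSO, 3906, 4122 and 4344 at 6 h and 4074, 4112 and 4122 at 72 h. By this probe set the 3 groups overlapped, and the ratio at 72 h was 0.978 (95% interval 0.908 to 1.05). The other probe set of ANLN was lower at 72 h, at -0.35 ± 0.04, as given below. TPX2, which activates AURKA on the spindle, stood at 0.12, PRC1, which bundles midzone microtubules, at 0.028 and ECT2, the exchange factor that sets off furrowing, at 0.14. FOXM1, the forkhead factor that drives many of these genes, read 557, 568 and 586 in DMSO, 579, 557 and 557 at 6 h and 517, 557 and 497 at 72 h. Its groups met at 557, and its log2 difference of -0.12 ± 0.057 did not pass (adjusted p = 0.125, interval 0.843 to 0.998).

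**Figure D2:**
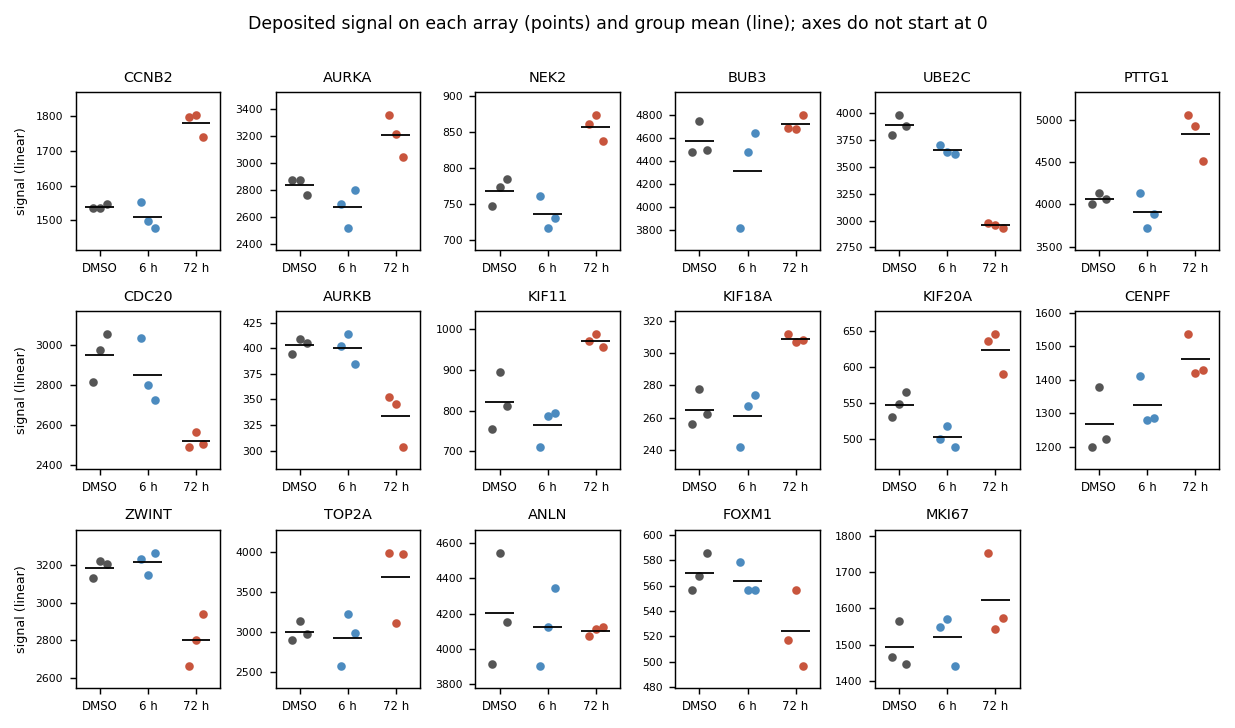
Deposited signal (y axis, linear, not starting at 0) on each array in DMSO, 6 h and 72 h (x axis) for 17 mitosis genes; points are arrays and lines are group means, n = 3 each. UBE2C steps down from a mean of 3890 in DMSO to 2958 at 72 h, and CCNB2 and KIF18A stand apart upwards at 72 h. ANLN, by its probe set of highest signal, overlaps in all groups.

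At 6 h limma called 0 of the 50 genes, against 0.473% of all genes (0.363% higher, 0.110% lower). An unadjusted p under 0.05 was reached by 5 of the 50, all lower, against 4.59% of all genes in either direction. They were CCNA2 (-0.17), MAD2L1 (-0.16), KIF20A (-0.13), UBE2C (-0.090) and BIRC5 (-0.090). BIRC5 read 1965, 1915 and 1976 in DMSO and 1827, 1865 and 1810 at 6 h, and UBE2C and KIF20A were likewise without overlap. In all, the 6 h arrays lay entirely below DMSO for 5 of the 50 genes and entirely above for 1 (KIF15), against 5.94% and 6.26% of all genes. MAD2L1 read 1901, 1895 and 1761 in DMSO and 1443, 1802 and 1753 at 6 h, where replicate 1 was the low one. Over the 50 genes 39 differences were negative, and the median was -0.044, against -0.00095 for all genes. The 95% intervals lay inside 0.8 to 1.25 for 47 genes, all but CCNA2, INCENP and KIF15. The count of 0 held under each of the 22 alternatives run, and the median ran from -0.069 without DMSO replicate 1 to -0.024 without DMSO replicate 2.

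Between the times, 17 of 50 genes were called at 72 h against 6 h, 12 higher and 5 lower. Of all genes 24.0% were called, 7.28% higher and 16.7% lower. This comparison uses the same 72 h arrays as the one with DMSO. The 72 h arrays lay entirely above the 6 h arrays for 14 of the 50 genes and entirely below for 9, against 10.7% and 22.9% of all genes. KIF11 differed most, 1.27-fold higher (log2 0.35 ± 0.063, adjusted p = 0.00103), followed by TOP2A at 0.33, PTTG1 at 0.31 and KIF20A at 0.31. UBE2C was lower by 0.31 on the log2 scale (SE 0.033, adjusted p = 1.37e-05). CDK1, CCNA2, CDC25B, CENPN and ECT2 were called here and not against DMSO. CDC25B read 1410.1, 1175 and 1189 at 6 h and 1009.7, 1009 and 1086 at 72 h, with a difference of -0.28 ± 0.064 (adjusted p = 0.00583). ECT2 read 1668, 1759 and 1882 at 6 h and 1944, 2107 and 2337 at 72 h, without overlap, with a difference of 0.26 ± 0.066 (adjusted p = 0.00928). CCNA2 stood at 0.26 ± 0.075 with overlapping arrays (532, 584 and 648 against 696, 760.3 and 648), CENPN at 0.18 ± 0.049 and CDK1 at 0.16 ± 0.047. Calls here that ended without 6 h replicate 1 were those of CDK1 (adjusted p = 0.0869), CCNA2 (0.101), KIF18A (0.103), CENPN (0.0527) and TOP2A (0.0563), and the count over all 50 was then 13. Without 6 h replicate 2 those of CCNA2 (0.0637), AURKB (0.0579) and KIF18A (0.0520) ended, and without 6 h replicate 3 that of CENPN (0.0618). Without 72 h replicate 1 those of CDK1 (0.0523) and TOP2A (0.0615) ended, without 72 h replicate 2 those of CDK1 (0.0571), CCNA2 (0.114) and CENPN (0.0574), and without 72 h replicate 3 those of TOP2A (0.0676) and ECT2 (0.0511). With 72 h replicates 2 and 3 both left out, the median difference was 0.1 for the mitosis genes and 0.0069 for all genes.

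Probe sets of the same gene did not always move together. Of the 99 probe sets, 86 lay above the filter, and 24 genes had 2 or more of these. At 72 h the signs differed within 12 of the 24 genes, and at 6 h within 10. Fitted over all 54675 probe sets, where 2.05% were called higher and 5.38% lower at 72 h, 6 mitosis probe sets were higher (of CCNB1, CCNB2, AURKA, PTTG1, KIF11 and MKI67) and 6 lower (of CDC20, UBE2C, AURKB, ZWINT, ANLN and MKI67). Between the times 9 were higher and 6 lower, against 1.59% and 4.82% of all probe sets. At 6 h limma called 0 of the 99 by this fit, against 0.0732% of all probe sets. CCNB1 was the widest case upwards. Its probe set of highest signal was flat, while the other read 1464, 1552 and 1446 in DMSO, 1489, 1368 and 1381 at 6 h and 2039, 2098 and 2176 at 72 h, a rise of 0.50 ± 0.048 (adjusted p = 3.6e-05). For ANLN the probe set of highest signal was flat and the other read 2085, 2206 and 2253 in DMSO and 1698, 1728 and 1719 at 72 h, a fall of 0.35 ± 0.040 (adjusted p = 0.000145). MKI67, which encodes the proliferation marker Ki-67, a coat protein of mitotic chromosomes, had calls both ways. Its 4 probe sets stood, in order of signal, at 0.12, 0.22, -0.38 and -0.39, of which the second was called higher (adjusted p = 0.0363) and the fourth lower (0.0457). The second read 753, 787 and 753 in DMSO and 958, 856 and 867 at 72 h. The fourth read 173, 192 and 172 in DMSO and 145, 153 and 115 at 72 h.

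Over the 24 genes, the probe sets of highest signal had a median of 0.027 at 72 h and the 36 others -0.092. In 26 of the 36 cases, 72.2%, the other probe set lay below the first of its gene, against 61.0% over 10570 such cases in all genes. At 6 h the shares were 50% and 48.9%. The 72 h arrays also had the higher ACTB 3' to 5' ratios given above, while the GAPDH ratios overlapped. The part of these ratios in this was not tested. With the probe set of second highest signal, TOP2A stood at -0.040 and NEK2 at -0.22 at 72 h, neither passing, and AURKA at 0.056. With the probe sets of a gene averaged, the 72 h calls of CCNB2, AURKA (adjusted p = 0.879), NEK2 (0.766), AURKB (0.0761), CENPF (0.323) and TOP2A (0.690) ended, and CCNB1, MAD2L1 and ANLN were called instead. These averages also take in probe sets below the filter, which CCNB2, AURKA, CENPF and TOP2A have. Without the mean-level trend in limma, those of AURKA (0.0749), NEK2 (0.0539), CENPF (0.0769) and TOP2A (0.111) ended. Against 6 h, averaging ended the calls of CDK1, CCNA2, CCNB2 (0.14, adjusted p = 0.331), AURKA, NEK2, AURKB, CENPN, TOP2A and ECT2. By the second probe set CDK1 stood at -0.12, CENPN at -0.12 and ECT2 at -0.19 there. For CDK1 the other probe sets stood at -0.12, -0.17 and -0.62 at 72 h, none of them called, against 0.12 for the first. The probe sets of UBE2C, CDC20, PTTG1, ZWINT, KIF11, KIF18A and KIF20A were the only named ones of these genes, so their calls have no such comparison. For CENPA, 1 further probe set carries several gene names and was not used.

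**Figure D3:**
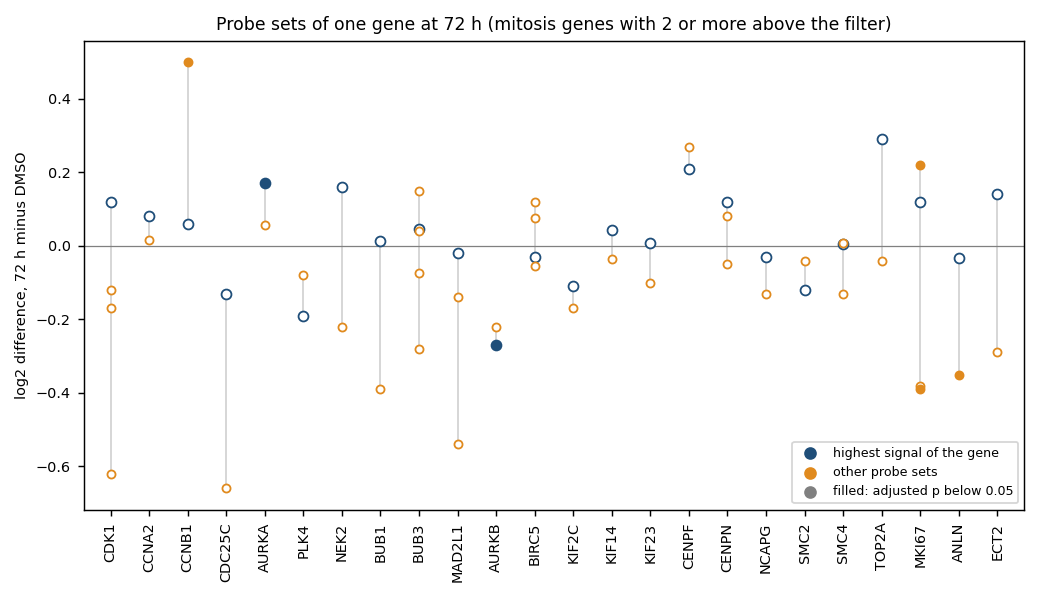
Log2 difference, 72 h minus DMSO (y axis), of every probe set above the filter for the 24 mitosis genes with 2 or more (x axis); blue marks the probe set of highest signal of a gene, orange the others, and filled points passed over all probe sets. CCNB1 has an orange point at 0.50 above a blue one at 0.060, ANLN one at -0.35, and MKI67 filled points on both sides of 0.

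Other genes of mitosis gave mixed counts at 72 h, with 13 of 117 measured genes higher (11.1%) and 21 lower (17.9%), near the 8.33% and 18.3% of all genes, and a median of -0.060. At 6 h limma called 0 of them, and 5 had an unadjusted p under 0.05. The counts by list that follow are small, stand against that background and were not tested as lists. Subunits, coactivators and inhibitors of the APC/C held 4 higher and 1 lower of 17. ANAPC16, a small subunit, rose by 0.46 ± 0.052, CDC27 by 0.23 and ANAPC15 by 0.23, while FBXO5 (EMI1), an APC/C inhibitor, fell by 0.31 ± 0.061. Other kinetochore and centromere genes held 2 higher and 9 lower of 29, with SPDL1 at -0.46, SKA3 at -0.46, MIS12 at -0.43 and HJURP, the chaperone that deposits CENPA, at -0.40. Cohesin and condensin II genes held 1 higher and 3 lower of 17, with SGO1 (shugoshin) at -0.62 and CDCA5 (sororin) at -0.40, both of which protect cohesion. Other spindle and cytokinesis genes held 4 higher and 1 lower of 19, among them DLGAP5 (0.26) and ASPM (0.22). Of 14 other mitotic kinases and CDK1 regulators 2 were higher and 3 lower, led by CDC25A, the CDC25 phosphatase that acts from G1 phase on (-0.75), and HASPIN, the histone H3 kinase that recruits the passenger complex (-0.60). Of 14 MuvB, DREAM and NF-Y genes, 0 were higher and 3 lower by limma (E2F5 at -0.37, NFYB at -0.30, TFDP1 at -0.27), and 4 of the 14 had an unadjusted p under 0.05. CEP152, which recruits PLK4, fell by 0.35 and was the 1 call among 7 centriole duplication genes.

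DNA replication genes were measured on the same arrays. Of 37 such genes 25 were lower at 72 h and 1 higher, with a median of -0.24, against 18.3% of all genes lower and 8.33% higher. The 50 mitosis genes held 4 lower and 9 higher and a median of 0.015. GINS4 and GINS2, subunits of the GINS complex of the replicative helicase, stood at -0.67 and -0.64, ORC1, of the origin recognition complex, at -0.66, and CDC45, also of the helicase, at -0.62. The 1 higher gene was RFC5, a subunit of the clamp loader, at 0.59. The difference between these sets was not tested.

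**Figure D4:**
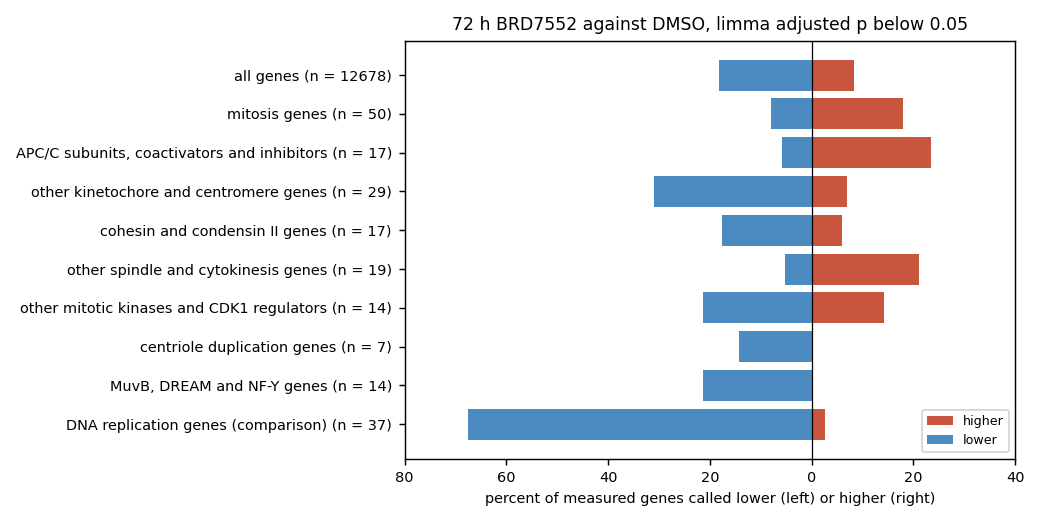
Percent of measured genes called lower (blue, left) and higher (red, right) at 72 h against DMSO for all genes, the 50 mitosis genes and the other lists (y axis, with the number measured). The mitosis genes show 18% higher and 8% lower, all genes 8.33% and 18.3%, and the DNA replication genes extend furthest to the left.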

How the data were processed

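The authors deposited intensity values, linear and 1 per probe set, for 54675 probe sets on 9 arrays. MAS5 is named per the submitters' processing notes, with no version or scaling in the sources used here. For 59.2% of probe sets some arrays share exactly the same value, which can make a spread too small. The platform table gave 1 symbol for 41097 probe sets (41043 with a current record), several for 1801 and none for 11777. Values were used as deposited and log2 transformed. Each gene was represented by its probe set of highest mean, genes whose mean was under that of the median probe set (log2 4.15) were left out, and limma 3.58.1 in R 4.3.3 (lmFit, then eBayes with a trend on mean level, 6 residual degrees of freedom) was fitted to all 9 arrays, with Benjamini-Hochberg adjustment over 12678 genes. Probe sets were also fitted without a filter. The fit was tested on simulated data, with a pass mark that covered only changes larger than any reported here for the mitosis genes. The members, classes and lists were chosen with earlier results of these data known. Arrays were given in full for up to 3 called genes per class with the largest difference from DMSO, otherwise for the one with the highest signal, for genes with probe sets called both ways, and for some genes beyond this rule chosen after their values were seen (CDK1, PLK1, BIRC5, MAD2L1, CCNA2, CDC25B, ECT2, CCNB1). Of other lists, up to 4 called genes with the largest change were named. Alternatives covered scaling, filter, pseudocount, probe set choice, trend, array weights, samples in the fit, the replicate block and each array left out.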

Additional observations from a re-analysis of the deposited data

Results flagged for a closer look

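For 17 of the 50 mitosis genes the arrays of the 72 h and 6 h exposures differed (limma, adjusted p below 0.05). Of all genes 24.0% were called in this comparison, 7.28% higher and 16.7% lower. The DMSO arrays carry no exposure time, so time in culture and the compound cannot be told apart in this comparison, nor in those with DMSO. The difference, 72 h minus 6 h on the log2 scale, was 0.16 for CDK1, 0.26 for CCNA2, 0.24 for CCNB2, 0.26 for AURKA, 0.22 for NEK2, 0.31 for PTTG1, 0.35 for KIF11, 0.24 for KIF18A, 0.31 for KIF20A, 0.18 for CENPN, 0.33 for TOP2A and 0.26 for ECT2. It was -0.28 for CDC25B, -0.18 for CDC20, -0.31 for UBE2C, -0.26 for AURKB and -0.20 for ZWINT. The calls of CDK1, CCNA2, KIF18A, CENPN, TOP2A, AURKB and ECT2 ended with single arrays left out, as given above. By the probe set of second highest signal, CDK1, NEK2, CENPN and ECT2 stood below 0. Among the 50, KIF20A was the only gene whose 6 h arrays all lay below DMSO (500.4, 518 and 490 against 531, 549 and 565) and whose 72 h arrays all lay above it.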

How the results depend on the processing

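At 6 h limma called 0 mitosis genes under each of 22 alternatives. The 13 calls at 72 h against DMSO became 6 with arrays centred on their medians and 4 of 24 genes with the probe set of second highest signal (added after the data were seen), and 7 to 15 with 1 array left out. The share of all genes called moved as well. It was 8.33% higher and 18.3% lower as reported, 6.47% and 9.99% with median centring, and 4.48% and 14.5% with the second probe set. With 1 array left out it ran from 5.66% to 8.77% higher and from 12.4% to 26% lower. The 17 calls against 6 h became 10 with median centring and 10 with the probe sets of a gene averaged. They became 11 without a trend, 11 with array weights and 5 of 24 with the second probe set. With 1 array left out the count was 13 to 18. Of all genes 7.28% were higher and 16.7% lower as reported, 4.8% and 9.25% with median centring, and 3.48% and 14.4% with probe sets averaged. These shares were 4.72% and 12.8% without a trend, 5.17% and 16.8% with array weights, and 3.25% and 13.3% with the second probe set. Without the 72 h arrays 2 and 3 together (also added), the median difference of the mitosis genes from 6 h was 0.1. Falls made up 30.8% of calls against DMSO, 16.7% after median centring, 50% with probe sets averaged or with the second probe set, 44.4% without a trend and 57.1% without DMSO replicate 1. Against 6 h they made up 29.4%, and from 20% (median centring) to 50% (probe sets averaged). The median difference from DMSO at 72 h was 0.053 with median centring, -0.038 with probe sets averaged and -0.092 with the second probe set, and against 6 h 0.0022 and -0.085 with the last 2 of these. Among called genes, averaged probe sets turned AURKA to -0.015 and NEK2 to -0.030 against DMSO and CDK1 to -0.19 against 6 h. The average for AURKA includes a probe set below the filter (mean signal 16, log2 difference -0.28), while its others stood at 0.17 and 0.056. The second probe set turned NEK2 to -0.22 and TOP2A to -0.040 against DMSO, and NEK2 to -0.20, CDK1 to -0.12, CENPN to -0.12 and ECT2 to -0.19 against 6 h. Among probe sets above the filter only, 23 were called in each 72 h comparison, against 12 and 15. The cause of these shifts was not tested. Of 9 same-numbered pairs of arrays, 4 had a correlation of deviations over 0.1, and the highest, 0.36, was between different numbers. As deviations from a mean of 3 arrays sum to 0, these correlations cannot settle whether replicate numbers pair the arrays. With the replicate block 0, 12 and 18 genes were called at 6 h, at 72 h and between the times, and KIF18A lost its call against DMSO (adjusted p = 0.0571). Of all genes 7.97% were then higher and 17.2% lower at 72 h, and 6.91% and 15.5% between the times. The number of arrays limits the precision.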
